A study of Mus musculus with 12 samples.

Results

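Smooth muscle cells contract through an actin and myosin apparatus, and Acta2, Tagln, Cnn1, Myh11 and Lmod1 encode parts of it: smooth muscle alpha-actin, transgelin, calponin, smooth muscle myosin heavy chain and leiomodin. Col1a1, Col1a2 and Col3a1 encode the chains of the fibrillar collagens of types I and III, the main load-bearing fibres of mesenchymal matrix. Transcription of the contractile genes is known to depend on serum response factor (SRF), which binds CArG boxes together with its coactivator myocardin, and the collagen genes are known targets of transforming growth factor beta signalling. In the early heart, cardiac progenitors switch on several smooth muscle genes for a time. H3K27ac, an acetylated form of histone H3, marks active promoters and enhancers.

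These 8 genes, of 21887 protein-coding genes in the reference table, were described through all H3K27ac peaks and GLI1 sites in the gene body plus 50000 bp on each side. The rule used positions only and no measured values. The genes, and the gene lists compared further on, were chosen with earlier results of these data known. The data came from cardiac progenitor cells derived from mouse embryonic stem cells, line GLI1-FTA in the A2Lox.cre background, harvested on day 6 of differentiation. Dox cells received 500 ng/ml doxycycline for 24 hours from day 5 to express tagged GLI1, one of the factors through which Hedgehog signalling acts on transcription, and control cells were untreated. All cells carried the transgene, so effects of doxycycline and of GLI1 cannot be told apart. H3K27ac was immunoprecipitated and tagged GLI1 was pulled down on streptavidin beads, with 2 samples in each group, and the authors pooled the 2 before calling peaks. With 1 list for each condition there was no spread between replicates, no test between conditions and no p-value. In such bulk chromatin, fewer cells of a type and less acetylation per cell cannot be told apart.

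The windows held 83 dox and 90 control H3K27ac intervals. Where a dox and a control interval overlapped by 1 bp or more they were joined into a shared region; the rest are dox-only or control-only regions. The deposited value of a peak is its fold enrichment, the pileup of fragments over the local background. For a shared region, the log2 ratio of dox over control fold enrichment had the median over the genome's 35389 shared regions (−0.13) subtracted, so it places a region among the others. Ratios of at least 1 in size are called higher or lower. Each 95% counting interval is that of the dox over control ratio of the pileups, recovered from the deposited values and centred in the same way, and covers counting error only. Library depth was not given. The uniform background recovered from the lists was 3.63 fragments in dox and 2.83 in control, a ratio of 1.28.

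Stretches where the running peak numbers of a list skip were not analysed. They covered 82.7% of the Myh11 window, including the whole gene, and 53.3% of the Cnn1 window, from position 22100560 inside the gene onwards. The other 6 windows held no such stretch. Of the cardiac markers, Tnnt2 was acetylated at an end in both conditions (fold enrichment 3.74 in dox and 10.4 in control). Its log2 ratio of −1.35 was lower, as in 2.04% of genes with a region at an end in both lists. Myl7 had a region in control alone (3.35), as 2.2% of all genes did, while Actn2 and Nkx2-5 had no peak at an end in either. The neural markers Sox1, Pax6 and Tubb3 had none, and of the endothelial markers Pecam1 had 11.2 in dox and 11.7 in control, with Cdh5 (3.13) and Kdr (2.82) in dox alone. A region at an end in dox alone was seen in 2.95% of all genes with both ends analysed. The values of Cdh5 and Kdr lay below the median of all dox-only regions (3.51).

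Promoter sequences of 3 of the genes are shown because H3K27ac intervals of both lists covered all 300 bases of each. They run from 250 bases before to 50 bases after the start on the gene's strand (RefSeq, GRCm38.p6). Capitals mark stretches with at most 1 base off the CArG box, and exact matches to the GLI core, which is ACCACCC or its reverse complement GGGTGGT. Both strands were searched, and the CArG box reads the same on each.
Acta2 (chr19:34255324-34255623, minus strand): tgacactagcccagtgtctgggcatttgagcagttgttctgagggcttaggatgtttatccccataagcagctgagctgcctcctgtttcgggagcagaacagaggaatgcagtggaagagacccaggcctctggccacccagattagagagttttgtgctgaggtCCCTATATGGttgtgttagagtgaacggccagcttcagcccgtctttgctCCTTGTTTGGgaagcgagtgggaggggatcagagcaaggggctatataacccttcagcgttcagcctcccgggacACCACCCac
Lmod1 (chr1:135324563-135324862, plus strand): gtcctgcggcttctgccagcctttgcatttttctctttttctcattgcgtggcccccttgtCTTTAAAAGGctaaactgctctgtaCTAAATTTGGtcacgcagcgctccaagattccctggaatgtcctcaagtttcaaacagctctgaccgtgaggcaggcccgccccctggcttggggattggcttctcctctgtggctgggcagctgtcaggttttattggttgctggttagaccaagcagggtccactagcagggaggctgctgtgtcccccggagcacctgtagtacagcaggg
Col3a1 (chr1:45311288-45311587, plus strand): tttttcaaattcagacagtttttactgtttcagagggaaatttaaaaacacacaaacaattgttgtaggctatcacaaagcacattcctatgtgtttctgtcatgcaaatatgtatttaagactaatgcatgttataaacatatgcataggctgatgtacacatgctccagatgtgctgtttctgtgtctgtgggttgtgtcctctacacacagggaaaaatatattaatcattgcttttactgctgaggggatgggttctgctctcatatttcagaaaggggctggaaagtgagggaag
Acta2 held 2 CArG-like stretches, with first bases 84 and 34 bases before the start, and a GLI core 41 bases after it. Lmod1 held 2 as well, 189 and 164 bases before the start, and the window of Col3a1 had neither motif. An exact CArG box was in none of the 5 promoters matched (also Cnn1 and Col1a2), against 1.63% of 32817 promoters. A CArG-like stretch, looked for after the exact box was not found, was in Acta2, Lmod1 and Col1a2 and in 21.1% of all promoters. A GLI core was in 4.61% of all promoters. These matches describe letters and not binding.

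The 4 contractile genes that could be measured had log2 ratios below 0 at their ends, as 36.6% of all measured genes did. The counting intervals of Tagln and Lmod1 lay below 0, and those of Acta2 and Cnn1 held 0. At Acta2 (chromosome 19, 34240336 to 34255585, minus strand) a region of 5806 bp over the start (34251667 to 34257472) had a fold enrichment of 18.1 in dox and 24.3 in control, a log2 ratio of −0.29. The recovered pileups were 83 fragments in dox and 94 in control, and the 95% counting interval of their centred ratio (−0.72 to 0.17) held 0. The dox intervals in that region covered 3776 bp, against 5806 bp in control. A second region 6415 bp from the gene (34262000 to 34266668), on the side of its start, had 10.6 in dox and 19.1 in control, a log2 ratio of −0.72 (pileups 49 and 91, counting interval of their ratio −1.52 to −0.47). The counting interval held 0 in the first region and lay below 0 in the second, without any measure of spread between replicates. The highest summits of the lists were 1162 bp apart in the first region and 36 bp apart in the second.

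Transgelin is an actin-binding protein of early smooth muscle. At Tagln (chromosome 9, 45929628 to 45936058) the region over the higher-coordinate end (45934638 to 45937542) had 13.2 in dox and 27.5 in control, a log2 ratio of −0.93. The pileups were 60 in dox and 122 in control (counting interval of the ratio −1.59 to −0.66). This region also reaches within 1000 bp of the neighbouring gene Sidt2. Inside the gene, part of which Pcsk7 overlaps, 4 control-only regions had fold enrichments of 2.29 to 5.41, and the shared region between them had 2.95 in dox and 4.46 in control. Intervals covered 23.4% of the gene in dox and 49.7% in control. A region 8740 bp from Tagln (45919199 to 45920888), inside Pcsk7, was lower at 4.75 in dox and 11.7 in control (log2 ratio −1.17, counting interval −1.98 to −0.38).

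Calponin binds actin and damps its interaction with myosin. At the start of Cnn1 (chromosome 9, 22099221 to 22109221, plus strand) a region of 1339 bp (22099295 to 22100633) had 4.32 in dox and 9.62 in control, a log2 ratio of −1.02. It rests on 26 and 40 fragments, and the counting interval (−1.49 to 0.03) held 0. Dox intervals covered 372 bp of it. The region reaches into the stretch not analysed, where further dox intervals cannot be seen, and the far end of the gene lies within that stretch. Upstream, 2 control-only regions 2661 and 3057 bp from the gene had 3.52 and 3.55.

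Leiomodin starts new actin filaments in smooth muscle. At Lmod1 (chromosome 1, 135324813 to 135368065, plus strand) a region of 2473 bp over the start (135322954 to 135325426) had 13.2 in dox and 22.1 in control, a log2 ratio of −0.61 (pileups 66 and 105, counting interval −1.23 to −0.31). Inside the gene a region of 2456 bp (135358203 to 135360658) had 12.5 in dox and 26.5 in control, the highest control value within the gene (log2 ratio −0.95, counting interval −1.07 to −0.20). The pattern was not one-sided here. A dox-only region of 1164 bp (135363343 to 135364506) in the last part of the gene had 7.47, and a shared region of 542 bp stood at 4.11 in dox and 3.13 in control (log2 ratio 0.52, counting interval −0.54 to 1.85). The window held 12 control-only regions, with fold enrichments up to 5.22, and 2 dox-only ones. Its strongest region in both lists (135313013 to 135314452) lay at the end of Timm17a, with 23.7 in dox and 32.6 in control (−0.33, −0.45 to 0.29).

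Myh11, the gene of the myosin heavy chain that defines mature smooth muscle (chromosome 16, 14194527 to 14292188), could not be described. The part of its window that could be analysed held 4 shared regions at the ends of Marf1 and Nde1 and inside Nde1, with log2 ratios of 0.16 to 0.51. The strongest (14159445 to 14160283) had 32.0 in dox and 31.4 in control.

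**Figure D1:**
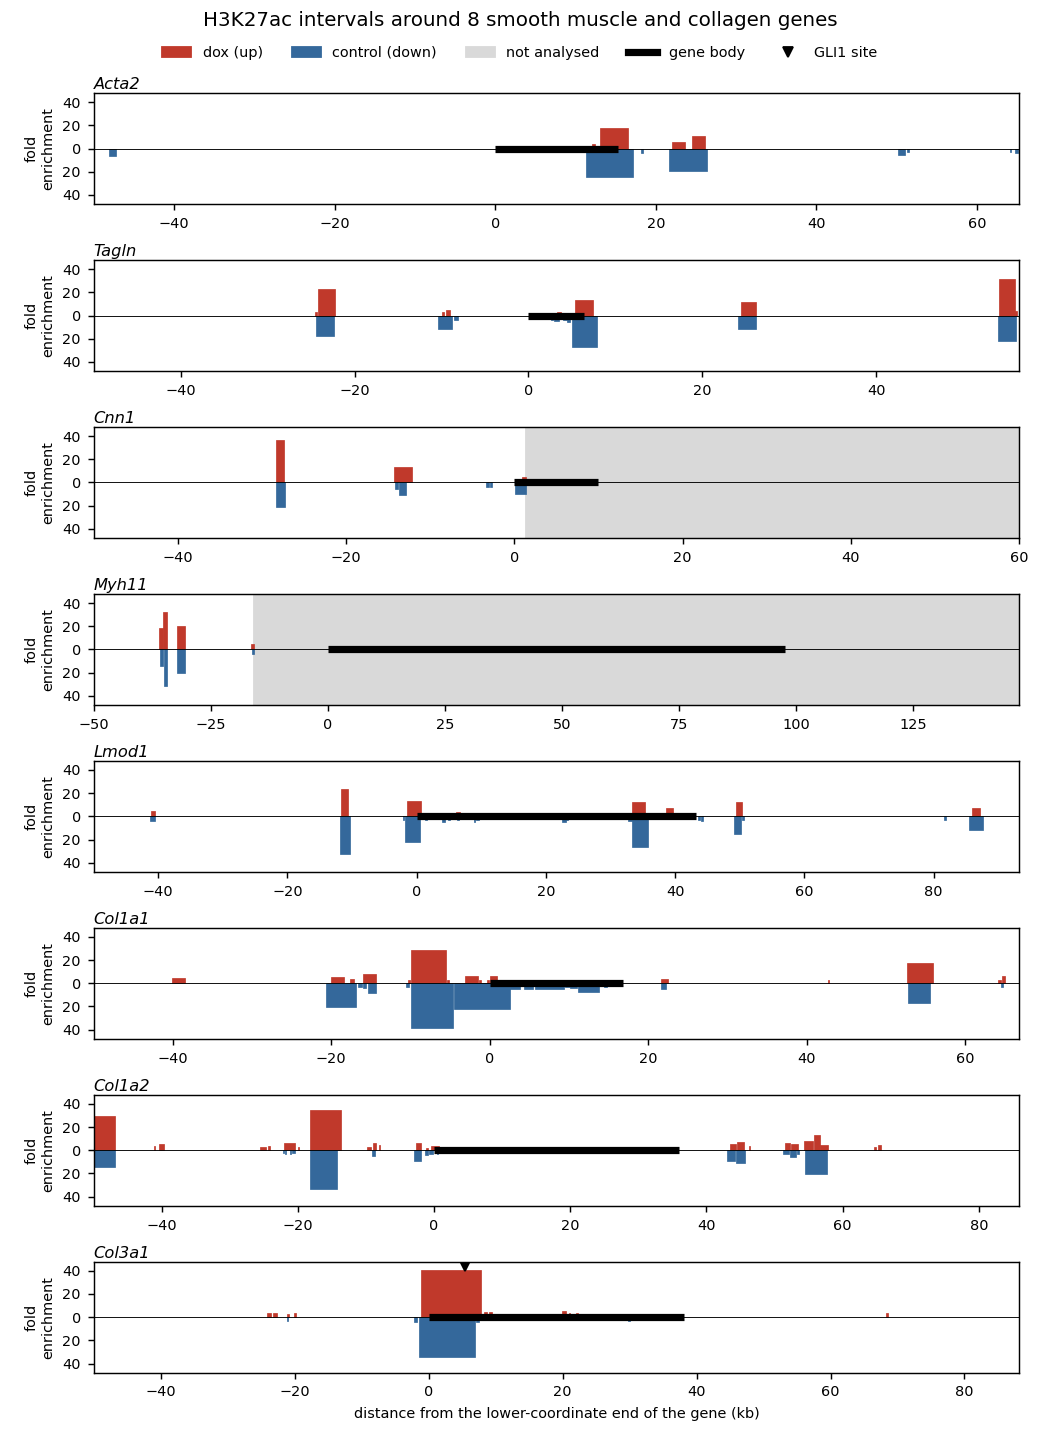
H3K27ac intervals in the windows of the 8 genes, with the deposited fold enrichment on the vertical axis (dox upwards, control downwards) and the distance from the lower-coordinate end of the gene in kb on the horizontal axis. Grey areas were not analysed. Control intervals are taller at Acta2, Tagln and the lower-coordinate end of Col1a1, and the triangle marks the GLI1 site in Col3a1.

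The 3 collagen genes differed from each other. Col1a1 (chromosome 11, 94936224 to 94953042), which encodes the alpha 1 chain of type I collagen, had the lowest ratio. The region over its lower-coordinate end (94931756 to 94938717) was a single control interval of 6962 bp with a fold enrichment of 22.2. In dox, 4 separate intervals covered 3135 bp of it, with 6.23 at most. The log2 ratio was −1.70, with pileups of 35 in dox and 96 in control (counting interval −2.15 to −0.98). The 2 values come from different positions, with summits 2647 bp apart. The dox value belongs to an interval inside the gene (94936310 to 94937123). The control summit lay outside the gene, more than 1000 bp from its end.

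The body of Col1a1 stood apart in breadth. Intervals covered 4.84% of it in dox and 77.2% in control. Of 15341 genes of at least 5000 bp with no skipped stretch in their window, none had a larger drop in covered share. Of 112 such genes with at least 50% of the body covered in control, the median covered share in dox was 56.0%, and 4, Col1a1 included, were at 10% or less. Both limits were chosen after the values had been seen, and the drop was ranked with all peaks alone. In control, 7 control-only regions ran through the gene with fold enrichments of 3.38 to 7.58, and with intervals of a −log10 q of at least 10 alone, the shares were 4.84% in dox and 30.4% in control.

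On the lower-coordinate side of Col1a1 the differences were uneven. A region of 3839 bp 16859 bp away (94915527 to 94919365) had 5.80 in dox and 20.8 in control (log2 ratio −1.71, counting interval −1.73 to −0.61). Its pileups were 42 in dox and 88 in control, a centred log2 ratio of −1.16. The local background was 6.41 fragments in dox and 3.29 in control, which adds to the difference in fold enrichment. The strongest region of the window, 4698 bp away (94926246 to 94931526), had 28.3 in dox and 38.3 in control, a log2 ratio of −0.30 (counting interval −0.77 to −0.11). Between them a region stood at 8.21 in dox and 8.40 in control (0.10). Far from the gene, inside Ppp1r9b, a weak region of 481 bp was higher at 6.27 in dox and 3.33 in control (1.04), with a counting interval of −0.15 to 1.82.

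Col1a2 (chromosome 6, 4505618 to 4541543, plus strand), the gene of the alpha 2 chain that joins the Col1a1 product in type I collagen, had little acetylation at its own start in either condition. The region over the start (4504839 to 4506285) had 3.78 in dox and 3.52 in control (log2 ratio 0.23, counting interval −0.13 to 1.90), and one 877 bp upstream had 2.28 in dox and 4.35 in control (−0.80, −1.71 to 0.55). As a gene, with the highest value of each list, it stood at −0.07, its values coming from different regions. The strong regions lay upstream. One 13626 bp away (4487367 to 4491992) had 35.0 in dox and 33.5 in control (0.19, −0.10 to 0.55). At 46809 bp, across the border of the window (4454708 to 4458809), a region was higher at 29.2 in dox and 14.1 in control (1.19, 0.82 to 1.72), and a weaker one at 20355 bp had 6.10 in dox and 2.97 in control (1.17, 0.22 to 2.33). Downstream, a region at 18464 bp (4560007 to 4563473) had 13.1 in dox and 20.2 in control, a log2 ratio of −0.49 (−0.80 to 0.14).

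Col3a1 (chromosome 1, 45311538 to 45349706, plus strand) encodes the chain of type III collagen, found in distensible tissues such as vessel walls. Its start lay in a region of 9234 bp (45310142 to 45319375) with 40.4 in dox and 34.4 in control, the highest values at a gene end in both lists among the 7 genes with one. The log2 ratio was 0.36, and the counting interval (−0.03 to 0.62, pileups 186 and 142) held 0. Inside the gene, 6 dox-only regions had fold enrichments of 3.02 to 4.97, and 1 control-only region had 3.13. Intervals covered 26.6% of the gene in dox and 19.8% in control.

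**Figure D2:**
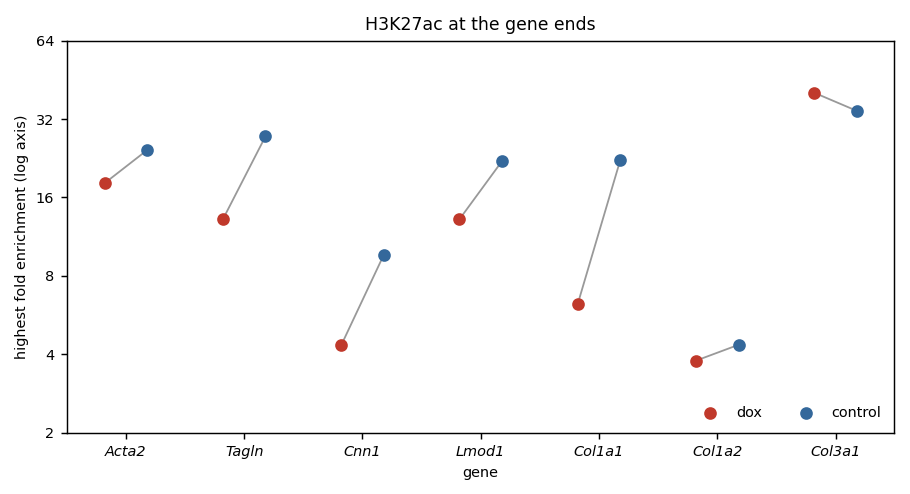
Highest H3K27ac fold enrichment at the gene ends (log axis), dox on the left and control on the right of each pair, for the 7 genes with a value. Col1a1 has the steepest difference (6.23 in dox and 22.2 in control, at summits 2647 bp apart), and Col3a1 is the gene with the higher value in dox.

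Of the 6 genes with both ends analysed, 5 had a log2 ratio below 0, while 36.6% of the 9852 measured genes did. The median of the 6 was −0.45, against 0.14 over all measured genes. Col1a2 was one of the 5 at −0.07, and its ratio turned to 0.23 for the highest region in the gene body or with depth-scaled pileups, and to 0.49 with centred pileups. Only Col1a1 of the 6 was lower, where 2.04% of all measured genes were, and none was higher, against 3.77%. Tagln passed the limit without centring (−1.06) and with pileups (−1.12 centred, −1.38 depth-scaled), and Lmod1 did with depth-scaled pileups (−1.03). Cnn1, measured at its start alone, stood at −1.02, but at −0.71 with centred and −0.98 with depth-scaled pileups.

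Shared regions at the ends of the contractile genes had ratios of −1.02 to −0.29, all 4 below 0. Shared regions at the ends of other genes in the same windows had ratios of −0.46 to 0.88. Of these, 3 of 10 were below 0, which is near the 36.6% of all genes measured at their ends. Over all shared regions 17693 of 35389 were below 0, a share set by the centring on their median. The lowest of the 10 (−0.46), at the end of Pcsk7, lay inside Tagln. The Tagln end region (−0.93) also reached within 1000 bp of Sidt2 but was counted with Tagln alone. Among the 10 were the ends that Zfp653 and Ecsit share (36.2 in dox and 21.5 in control, 0.88) and those of Rnf214 and Pcsk7 (23.2 in dox and 17.9 in control, 0.51).

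**Figure D3:**
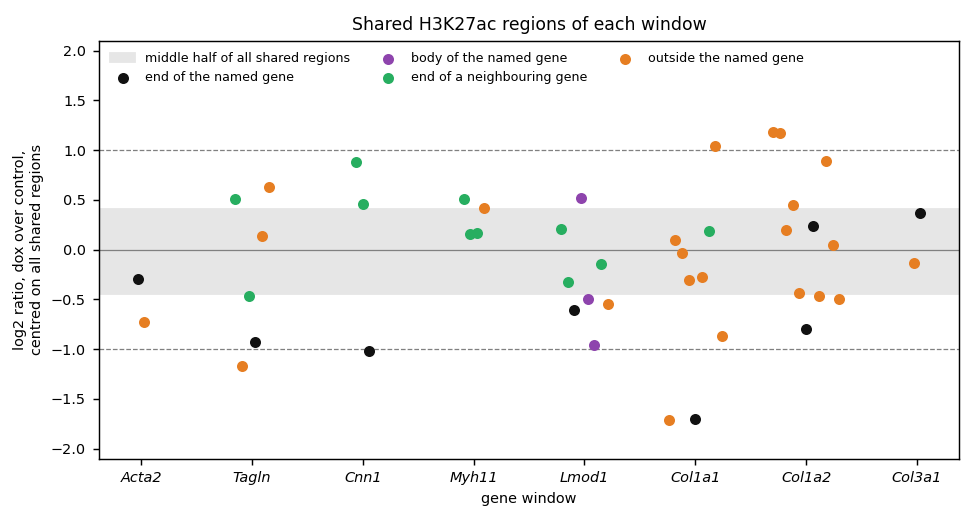
Centred log2 ratio of dox over control fold enrichment for the 45 shared regions of the 8 windows, coloured by position. The band holds the middle 50% of all shared regions (−0.45 to 0.41) and dashed lines mark ratios of 1 in size; ends of the contractile genes lie below 0, and the lowest points belong to Col1a1.

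Over all 45 shared regions of the windows the ratios were balanced. The median was −0.04, with 23 regions below 0 and 22 above. Higher were 3 of the 45, where 6.78% of all shared regions were higher, and lower were 4, where 8.31% were lower. The counting interval lay below 0 for 10 regions, where 14.5% of all shared regions had it below 0. It lay above 0 for 5 regions, against 12.0% of all shared regions, and held 0 for 30.

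Regions present in 1 list alone were counted next. The windows of the 5 contractile genes held 2 dox-only and 25 control-only regions beside 23 shared ones, and the 3 collagen windows held 23 dox-only and 11 control-only regions beside 22 shared ones. Within 10000 bp of the collagen genes 8 regions were dox-only and 9 control-only, so the dox-only excess lay farther out. Over the genome, 35.5% of all regions were dox-only and 27.1% control-only. Acta2 (0 dox-only and 6 control-only), Tagln (0 and 5), Lmod1 (2 and 12) and Col1a1 (3 and 8) had more control-only regions, which 28.3% of 19797 genes without a skipped stretch had. Col1a2 (10 dox-only and 1 control-only) and Col3a1 (10 and 2) had more dox-only regions, as 39.5% of those genes did.

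Most of these regions were weak. The median fold enrichment was 3.67 among the 25 dox-only and 3.53 among the 36 control-only regions, close to the medians of all such regions (3.51 dox-only and 3.66 control-only). A −log10 q of at least 10 was reached by 1 of the 25 dox-only regions, in Lmod1, and by 2 of the 36 control-only regions. Over the genome 5528 of 33496 dox-only and 2898 of 25596 control-only regions reached it, which are larger shares. The strongest control-only region was one of 2627 bp in Col1a1 (7.58), followed by one inside Stambpl1, 47255 bp from Acta2 (6.33). With intervals below a −log10 q of 10 left out before joining, the contractile windows held 1 dox-only and 2 control-only regions. The collagen windows then held 4 dox-only and 1 control-only region, so most of the contrast between the groups rested on weak intervals.

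**Figure D4:**
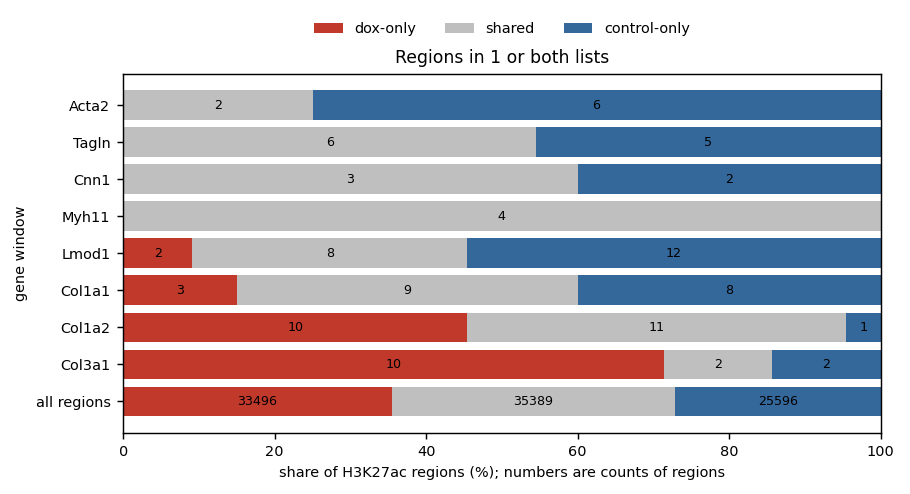
Share of dox-only, shared and control-only H3K27ac regions in each window and over all 94481 regions, with counts written in the bars. Acta2, Tagln, Lmod1 and Col1a1 hold more control-only than dox-only regions, and Col1a2 and Col3a1 the opposite; Cnn1 and Myh11 were analysed in part.

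The acetylated length of the windows followed the same split. Dox intervals covered 7014 bp and control intervals 13154 bp around Acta2, a ratio of 0.53. The ratio was 0.70 at Tagln, 0.67 at Lmod1 and 0.58 at Col1a1, but 1.23 at Col1a2 and 1.39 at Col3a1, against a median of 1.05 over 15540 genes with intervals in both lists. Less length in dox was seen in 44.3% of those genes. The mean fold enrichment of the intervals, weighted by width, was 12.9 in dox and 18.6 in control at Acta2, 17.0 and 16.6 at Tagln, 10.9 and 14.8 at Lmod1 and 13.0 and 17.0 at Col1a1. It was 15.4 and 15.8 at Col1a2 and 28.2 and 30.2 at Col3a1.

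**Figure D5:**
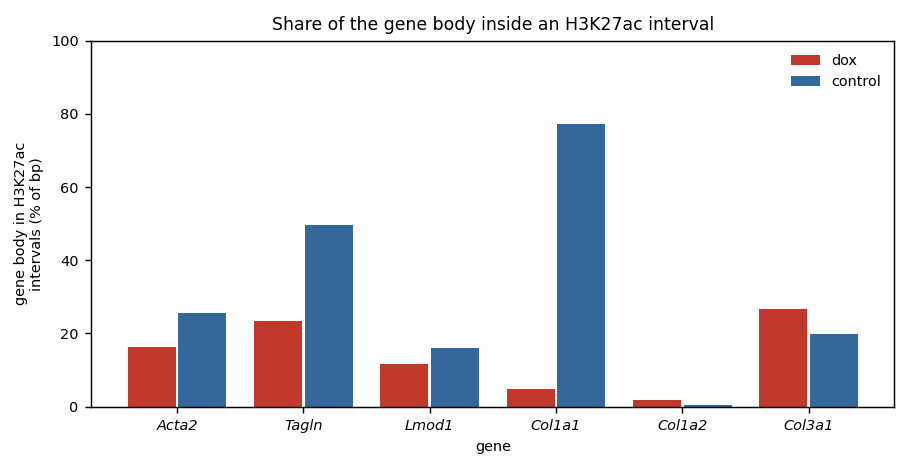
Share of the base pairs of the gene body inside an H3K27ac interval, dox left and control right, for the 6 genes without a stretch that was not analysed. Col1a1 has 4.84% in dox and 77.2% in control.

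A GLI1 site lay in 1 of the 8 windows, that of Col3a1. This is near the background, since 13.3% of the 19797 genes without a skipped stretch had at least 1 site in a window of the same kind. The site (chromosome 1, 45316867 to 45316967) lay 5379 bp inside Col3a1 from the start. Its −log10 q of 159 ranked 154th of 2605 sites, whose median was 30.8. It lay within the acetylated region over the start in both lists, and the closest H3K27ac summits were 306 bp away in dox (fold enrichment 40.4) and 286 bp away in control (33.4). The log2 ratio of that region, 0.36, was above those of 198 of the 783 shared regions with a GLI1 site (25.3%), whose median was 1.03.

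The nearest sites to the other genes lay farther off. The distance was 111627 bp for Acta2, 121974 bp for Col1a1, 152132 bp for Col1a2 and 156189 bp for Lmod1. For Cnn1 it was 252135 bp, for Tagln 579492 bp and for Myh11 960848 bp. The regions of Acta2, Tagln, Lmod1 and Col1a1 with ratios below 0 thus held no site. The sites were called in dox cells, and the control pulldown was not analysed here.

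Other genes listed as contractile were compared at their ends. Most are of the contractile apparatus and cytoskeleton, but the list also held genes such as Itga8 and Smoc2 that are not. Of 22 such genes, 19 were measured at an end in both lists and 3 (Actg2, Mylk and Pgm5) in neither, and the median ratio was −0.31, with 13 of the 19 below 0, against a median of 0.14 and 36.6% below 0 over all measured genes. Within 5000 bp of the ends, in place of 1000 bp, the median was −0.02. Lower was Tpm2, a tropomyosin gene (7.04 in dox and 16.1 in control, −1.06). Higher was Itga8, the gene of an integrin subunit (7.13 in dox and 3.66 in control, 1.10). Of all measured genes 2.04% were lower and 3.77% higher. Synpo2 (−0.99) and Des (−0.92), which encodes the intermediate filament desmin, stood just short of the limit. A GLI1 site lay in the windows of 6 of the 22, where 13.3% of genes without a skipped stretch had one: 2 each at Tpm1 (0.36) and Smtn (0.13), and 1 each at Mylk, Des, Smoc2 (−0.70) and Pgm5.

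Of 22 matrix genes analysed, 16 were measured in both lists, with a median of −0.03 and 8 below 0, beside the same all-gene median of 0.14 and share of 36.6%. Lower was Thbs1, which encodes the matrix glycoprotein thrombospondin 1 (8.11 in dox and 21.9 in control, −1.30), where 2.04% of all measured genes were lower. Its window held 2 GLI1 sites. Adamts2, the gene of a procollagen-processing protease, had a region in control alone (5.74), which 2.2% of all genes had, and its window held 1 dox-only and 18 control-only regions and 1 site. Col5a2, the neighbour of Col3a1, stood at −0.33. The basement membrane genes Col4a1 and Col4a2, which share their start region, stood at 0.38 and had 1 and 2 sites in their windows. Col6a3 had 1 site and no region at its ends. In all, 5 of the 22 windows held a site, against the same 13.3%.

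Of 23 known regulators of both gene groups, 19 were measured in both lists, with a median of 0.18 and 6 below 0, which is near the values over all measured genes (0.14 and 36.6%). Myocd, the gene of myocardin, was lower (4.32 in dox and 14.3 in control, −1.60), with 4 dox-only and 20 control-only regions and 1 site in its window. Its partner Srf had 33.1 in dox and 27.9 in control (0.38). Higher were Tgfb3, a transforming growth factor beta ligand gene (15.3 in dox and 8.22 in control, 1.02), and Pdgfra, a mesenchymal growth factor receptor gene (5.14 and 2.62, 1.11). Of all measured genes 3.77% were higher and 2.04% lower. Klf5 (5.74) and Runx1 (3.06) had a region in control alone, which 2.2% of all genes had. Smad3, which carries the signal of transforming growth factor beta to the nucleus, had 28.9 in dox and 20.2 in control (0.65), with 5 GLI1 sites, 32 dox-only and 4 control-only regions in its window. Sites lay in 8 of the 23 windows, against 13.3%, and were also found at Ets1 (5), Pdgfrb and Tead1 (2 each), and Mrtfb, Tgfbr2 and Pdgfra (1 each). In all of these lists a window is longer for a longer gene, and the 13.3% was not matched for gene length.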

How the data were processed

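Chromatin immunoprecipitation was followed by sequencing in 12 samples forming 6 groups of 2. Build mm10 and the tools MACS2 2.1.1, Bowtie2 2.3.2 and SAMtools 1.5 are named, per the submitters' processing notes, without their roles. The authors deposited pooled peak lists with a fold enrichment (a ratio to the local background) and the −log10 p and −log10 q of each summit, and 101 bp windows around GLI1 summits with a −log10 q, described in the deposited name as replicated and holding a Gli motif. No genome sequence was used. Gene coordinates came from RefSeq (GRCm38.p6). The lowest −log10 q was 1.33 in dox and 1.31 in control.

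Summits of an interval were collapsed to the highest, and regions were built and compared as described, with Python 3.11.15, pandas 2.3.3 and SciPy 1.17.1. Gene ends took regions within 1000 bp of either annotated end; 1420 genes with an end in a skipped stretch of either list were left out. Whole-number pileups that return the deposited −log10 p within 0.01 were found for 99.96% of 5000 sampled summits in either list. Intervals are exact conditional binomial ones at 95%. The region merging and pileup recovery were tested on simulated data.

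Named were the 8 genes, regions at their ends, with a GLI1 site, highest in a window or past the limit, and list genes past the limit, in 1 list alone or with a site; the other regions and genes named, and the limits of 50% and 10% of a gene body, were chosen after their values were seen. Genes and lists were chosen with earlier results of these data known.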

Additional observations from a re-analysis of the deposited data

How the results depend on the processing

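No paired analysis was possible because the lists pool the replicates, and no replicate could be left out for the same reason. At a deposited −log10 q of 10 or more, the 8 windows held 5 dox-only, 3 control-only and 28 shared regions in place of 25, 36 and 45, so that the excess of control-only regions was lost, and 1 shared region was higher and 2 were lower in place of 3 and 4. In windows of 10000 bp there were 10 dox-only and 20 shared regions, and in windows of 100000 bp 39 dox-only regions; the cause was not tested beyond the change in length itself. The other 33 values recomputed for the main comparisons stayed within 1.5 times of a count or kept the sign of a median: overlap by at least 50% of the shorter interval, a depth-scaled dox threshold, width-weighted means, no centring, recovered pileups and, for the lists, 5000 bp around gene ends among them. For single genes and for the contractile and collagen windows apart, 58 values stayed within their counting interval or 1.5 times and 13 moved. No ratio past the limit changed sign, but Tagln, Lmod1 and Cnn1 change sides of the limit of 1 with the scaling, as given above. Within 5000 bp of a gene end Col1a1 had −0.30, because the strong region 4698 bp away then enters. At the stricter threshold 8.61% of the body of Lmod1 was covered in dox and 7.02% in control, the other way round from all peaks. The median of the contractile list was −0.02 within 5000 bp. Centring of pileups and CArG-like stretches were chosen after the data had been seen. Depth is known as a ratio of backgrounds alone, and regions near 10 fragments rest on few reads.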
